A study of Homo sapiens with 6 samples.

Results

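Genes of the replication fork and of chromatin assembly behind it were examined in MM1S, an established line of human myeloma cells, that is, malignant plasma cells. They are 42 genes chosen by symbol, and each had at least 1 probe set annotated to it alone, out of 19775 genes read on the arrays. RNA from cells labelled normoxia was hybridised to 3 arrays and RNA from cells labelled hypoxia to 3 others, to compare their mRNA levels. The only treatment text, a hypoxic exposure of 24 h, stands on all 6 arrays, so groups follow the condition label. All arrays come from the same cell line, with no genotype or agent named besides oxygen. The sources used here give neither the oxygen concentration nor the handling of the normoxia cells. The labels do not say that replicates were separate cultures, and the p-values cover just the spread between these arrays, possibly technical.

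At a replication fork the MCM helicase unwinds DNA as a complex with CDC45 and the 4 GINS proteins. Polymerase alpha with primase starts each strand, polymerase epsilon extends the leading strand and polymerase delta the lagging strand. The ring-shaped clamp PCNA, loaded by replication factor C (RFC), holds polymerases on DNA, replication protein A (RPA) covers the unwound strand, and FEN1 and LIG1 finish the short Okazaki fragments of the lagging strand. Chromatin assembly factor 1 (CHAF1A and CHAF1B) and ASF1 hand histones to the new DNA. Many of these genes are transcribed in waves at the start of S phase by E2F transcription factors, and proliferating myeloma lines express them.

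Nearly all of these genes were lower in hypoxia. Of the 42 genes, 39 fell, 2 rose (POLD4 and RFC1) and 1 (CHTF18) did not pass, in limma with Benjamini-Hochberg adjustment over all genes at an adjusted p of 0.05. Over all 19775 genes 20.6% fell and 16.9% rose by the same rule. Among the 9923 genes with a mean log2(intensity + 16) of at least 7, a range that holds all 42 members, 34.9% fell and 27.0% rose. The median change was -1.17 for the 42 genes and -0.00016 for all genes, taking hypoxia minus normoxia of log2(intensity + 16), a scale that shrinks the changes of dim genes. Intervals given with a log2 change are 95% confidence intervals, and adjusted p-values are those of limma. Falls of at least 1 log2 unit were seen in 26 members, read by their brightest probe sets, against 4.75% of all genes. That share takes in dim genes, whose changes this scale shrinks, and was not taken among brighter genes alone. All 3 hypoxia arrays lay below all 3 normoxia arrays for 39 members (25.8% of all genes) and above them for 2 (22.1%). In RNA of whole cultures, fewer cells in S phase and less of these transcripts per cell cannot be told apart.

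The labels were set beside other genes, in lists chosen with earlier results of these data known. A rise of the hypoxia list is thus no independent check of the labels. A list of 10 hypoxia-responsive genes rose in full (background 16.9%), among them PFKFB4, a regulator of glycolysis, from 193 ± 17.9 to 3434 ± 20.9 (mean ± SD of intensity, n = 3 arrays a group, as for all values given so) and the aldolase gene ALDOC from 729 ± 19.6 to 5048 ± 202. Summed over 8 plasma cell markers, intensity was 42834 to 44440.3 in normoxia and 41274 to 43026 in hypoxia. Of these markers 4 fell, 1 rose and 3 did not pass, with falls of CD38 by 0.71 and SLAMF7 by 0.34. Markers of T cells (6 measured), myeloid cells (4 of 6) and stroma (6) were dim, with sums of 243 to 303, 150.2 to 158 and 397 to 467 in normoxia and 237 to 308, 150.4 to 187 and 339 to 486 in hypoxia. No marker mean was at 0, and the highest of those lists was COL1A1 at 155; the T cell gene CD3D went from 98.3 to 132 (limma adjusted p = 0.0370), and its part in the results was not tested. Array medians were 54.95 to 60.1 over 54613 probe sets. Without detection calls, signal near the array median cannot be told from background.

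Many of these genes are known to be transcribed by E2F factors, which bind a short motif close to gene starts. The promoter sequences of the members were therefore read. RefSeq promoter stretches (GRCh38.p14, 250 bases before to 50 after the gene start) were found for 36 members; GINS4, POLD3, DSCC1, RPA2, RPA3 and DNA2 had no entry. An E2F-type site was searched as TTTCCCGC, TTTCGCGC, TTTGCCGC or TTTGGCGC on both strands, a search chosen after the changes were known. Such a site was in 14 of the 36 stretches (38.9%), in 4.23% of the 15384 stretches of genes on the arrays and in 3.27% of all 27305 stretches. The members were chosen as replication genes, so a high share may follow from that choice and does not bear on hypoxia. Shown are 8 of the 14, from the helicase partners, polymerases, clamp loader, fork protection and DTL. All 8 fell by more than 1 log2 unit. POLE, POLE4 and TOPBP1 also had a site within the part printed but are not shown. Their falls were smaller, with log2 changes of -0.65, -0.86 and -0.83, so the display is not a fair sample of members with a site. The printed part runs from 70 bases before to 8 bases after the start, 5′ to 3′ on the strand of the gene, with the site in capitals.
GINS2 (chr16:85688947-85689024, minus strand): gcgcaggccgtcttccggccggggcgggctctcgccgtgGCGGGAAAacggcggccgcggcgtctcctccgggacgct
GINS3 (chr16:58392401-58392478, plus strand): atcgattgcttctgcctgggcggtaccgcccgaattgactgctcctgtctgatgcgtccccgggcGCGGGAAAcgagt
POLA2 (chr11:65261892-65261969, plus strand): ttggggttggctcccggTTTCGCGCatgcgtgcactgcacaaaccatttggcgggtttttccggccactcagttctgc
POLE2 (chr14:49688207-49688284, minus strand): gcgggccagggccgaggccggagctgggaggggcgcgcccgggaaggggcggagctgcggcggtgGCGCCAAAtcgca
RFC3 (chr13:33818079-33818156, plus strand): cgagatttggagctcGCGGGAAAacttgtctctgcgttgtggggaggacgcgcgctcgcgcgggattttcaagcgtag
TIPIN (chr15:66356678-66356755, minus strand): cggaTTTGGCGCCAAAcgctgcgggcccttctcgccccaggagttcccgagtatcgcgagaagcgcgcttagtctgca
CLSPN (chr1:35769971-35770048, minus strand): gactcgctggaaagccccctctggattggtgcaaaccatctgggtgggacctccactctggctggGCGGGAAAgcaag
DTL (chr1:212035678-212035755, plus strand): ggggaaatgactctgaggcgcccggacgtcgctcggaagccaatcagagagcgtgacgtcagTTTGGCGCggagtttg
In TIPIN the sites on both strands overlap to a palindrome, so a run of 12 letters is in capitals. In 11 of the 14 members with a site its first base lay within 70 bases before the start, and in GINS3, POLE2 and CLSPN the site began 5 bases before it. The 3 members that did not fall are shown next, picked by that outcome, and no site was found in their stretches of 300 bases. Of the 22 members without a site, 19 fell, and none of these 19 is shown.
POLD4 (chr11:67353539-67353616, minus strand): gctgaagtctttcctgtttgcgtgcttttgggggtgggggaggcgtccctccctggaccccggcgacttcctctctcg
RFC1 (chr4:39366355-39366432, minus strand): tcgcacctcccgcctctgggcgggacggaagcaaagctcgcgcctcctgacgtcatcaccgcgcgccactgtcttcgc
CHTF18 (chr16:788550-788627, plus strand): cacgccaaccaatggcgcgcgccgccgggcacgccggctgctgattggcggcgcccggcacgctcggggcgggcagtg

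All 14 members with a site fell, with changes of -0.65 (POLE) to -2.84 (GINS3) and a median change of -1.74. Of the 22 members without a site, 19 fell, with a median change of -1.09 and a range from -2.29 (FEN1) to 1.01 (POLD4). The ranges overlapped widely, since the falls of CDC45, FEN1 and PCNA came without these letters and the small fall of POLE with them. A match is no evidence of binding, and its absence says only that these letters are not in the stretch. Other motifs, also searched on both strands, were closer to their background: CCAAT was in 55.6% of member stretches and 35.7% of those of genes on the arrays. The HIF core ACGTG was in 30.6% and 23.7%, and the E-box CACGTG, which contains that core, was in 13.9% and 8.55%.

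The partners of the MCM helicase had the largest median change of the groups with several genes (-2.06), and all 5 fell. CDC45, which joins the helicase when an origin fires, was at 2027, 2163 and 2298 on the normoxia arrays and at 421, 506 and 504 on the hypoxia arrays (a log2 change of -2.15, interval -2.38 to -1.91, adjusted p = 4.67e-05). Every hypoxia array was thus far below every normoxia array. GINS3, a subunit of the GINS complex, was at 1365, 1368 and 1348 in normoxia and at 142, 207 and 183 in hypoxia (a log2 change of -2.84, interval -3.17 to -2.52, adjusted p = 5.17e-05). This was the largest fall among the 42 genes and the 6th largest among all genes, and hypoxia retained 13.1% of the normoxia intensity. GINS2 fell from 1907 ± 59.3 to 445 ± 33.3 (-2.06) and GINS1 from 2404 ± 30.3 to 729 ± 14.7 (-1.70). GINS4 fell less, from 204 ± 6.38 to 95.9 ± 8.48 (-0.98, interval -1.16 to -0.79), an interval that did not overlap those of GINS1, GINS2 and GINS3. The other probe set of GINS3 gave a fall of 2.77. The 3 others of GINS4 disagreed, with 1 at -1.34 (adjusted p over all probe sets in limma = 0.000500) and 2 that did not pass, at 0.52 and -0.31.

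**Figure D1:**
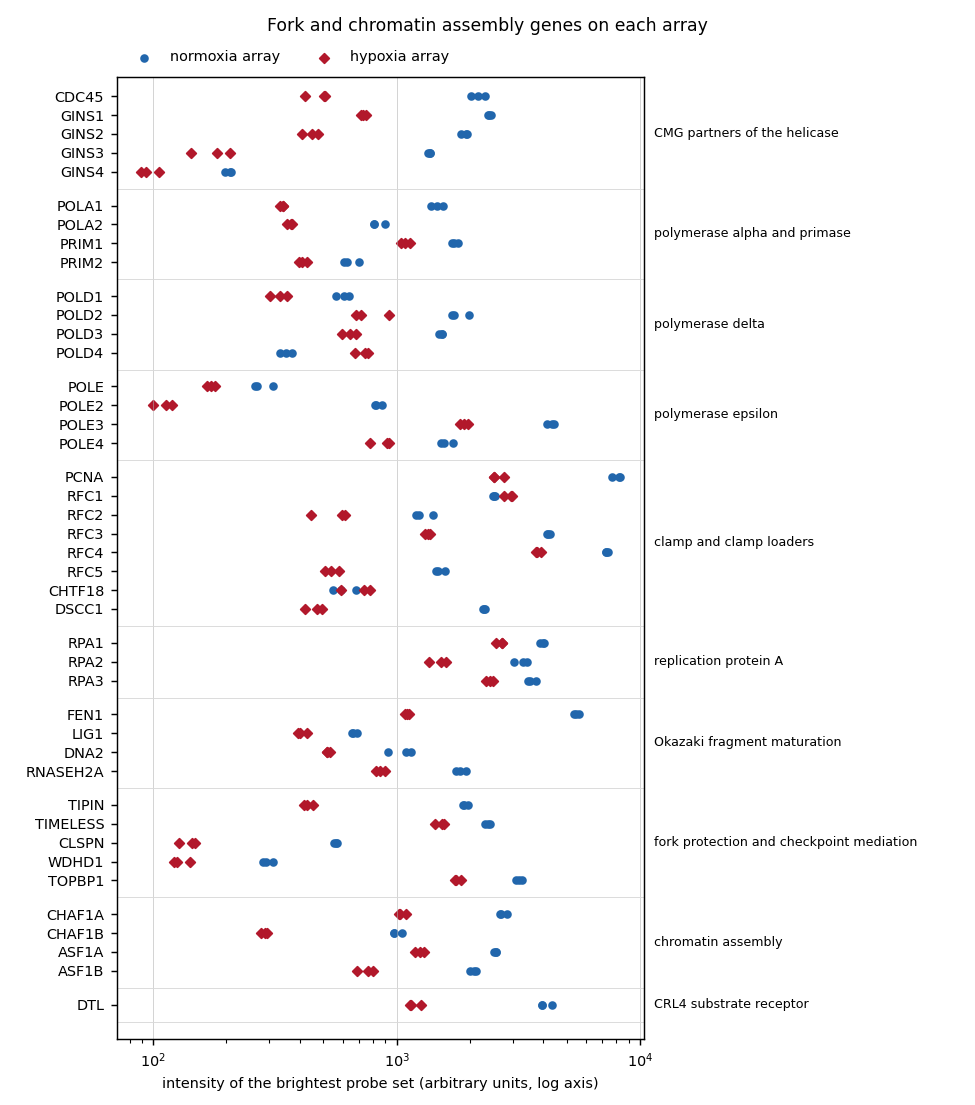
Intensity of the brightest probe set of each of the 42 genes (log axis, arbitrary units) on the 3 normoxia arrays (circles) and the 3 hypoxia arrays (diamonds), grouped by role. The hypoxia arrays lie left of the normoxia arrays for 39 genes and right of them for POLD4 and RFC1, and the arrays overlap for CHTF18; levels of different genes come from different probes and are not comparable.

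Changes in the 3 replicative polymerases differed from subunit to subunit. POLA1, the catalytic subunit of polymerase alpha, was at 1554, 1390 and 1468 in normoxia and at 340.0, 333 and 341 in hypoxia (a log2 change of -2.07, interval -2.22 to -1.91, adjusted p = 2.25e-05). The hypoxia arrays differed little from each other and stood well below all normoxia arrays. Its accessory subunit gene POLA2 fell from 838 ± 51.1 to 364 ± 8.63 (-1.17). The primase genes fell less, PRIM1, the catalytic subunit, from 1733 ± 53.2 to 1086 ± 47.6 (-0.67) and PRIM2, the large subunit, from 644 ± 49.2 to 411 ± 15.6 (-0.63). The difference between both primase subunits shifted by -0.041 on the log2 scale between conditions, with -0.13 to 0.072 over all pairs of a hypoxia and a normoxia array (exact permutation test, p = 0.4, adjusted 0.467 over the 7 pairs of genes tested).

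In polymerase epsilon, all 4 genes fell. POLE2, the second subunit of the enzyme, was at 822, 869 and 818 in normoxia and at 99.9, 113 and 119 in hypoxia (a log2 change of -2.75, interval -2.94 to -2.57, adjusted p = 2.07e-05), the 7th largest fall among all genes. The catalytic subunit gene POLE fell by 0.65, from 280.2 ± 27.0 to 173 ± 6.73. POLE3 and POLE4, small histone-fold subunits, of which POLE3 is also found in a chromatin remodelling complex, fell by 1.18 and 0.86, from 4313 ± 162 to 1894 ± 73.1 and from 1597 ± 95.2 to 873 ± 85.3. POLE2 fell further than POLE3 in every pair of arrays: the difference of their log2 values shifted by -1.57, and by -1.82 to -1.42 over pairs of arrays (exact permutation test, p = 0.1, the smallest that 3 against 3 arrays allow; adjusted 0.140).

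Polymerase delta held the clearest exception. POLD4, its smallest subunit, was at 333, 352 and 371 in normoxia and at 675, 763 and 741 in hypoxia (a log2 change of 1.01, interval 0.83 to 1.20, adjusted p = 0.000191). Every hypoxia array was above every normoxia array, at 207% of the normoxia mean on average, and 1 probe set reads the gene. The catalytic subunit gene POLD1 fell from 603 ± 38.9 to 329 ± 26.1 (-0.84), POLD2 from 1798 ± 165 to 773 ± 134 (-1.21) and POLD3 from 1524 ± 29.7 to 639 ± 41.7 (-1.23). The difference POLD1 minus POLD4 shifted by -1.86, and by -1.89 to -1.81 over pairs of arrays (exact permutation test, p = 0.1, adjusted 0.140). POLD2 was uneven among arrays, at 1988, 1688 and 1717 in normoxia and at 927, 713 and 679 in hypoxia, although the groups did not overlap. In both groups the array numbered 0 was the highest, and the reason was not tested. The rise of POLD4 ranged from 0.93 to 1.11 over all alternatives run, and passed in each of them.

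**Figure D2:**
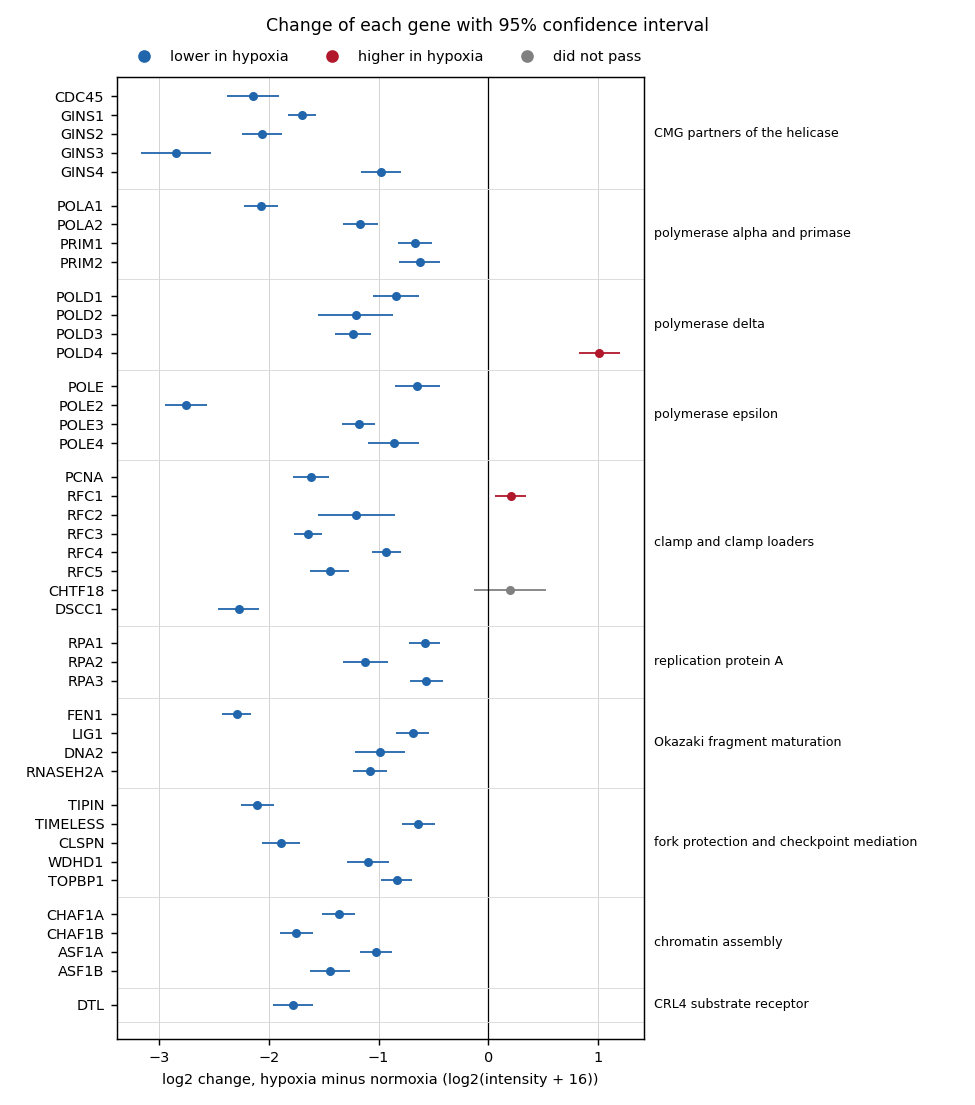
Log2 change of each gene, hypoxia minus normoxia of log2(intensity + 16), as points with 95% confidence intervals from limma, grouped by role. Falls run from -0.56 (RPA3) to -2.84 (GINS3), while POLD4 lies at 1.01, RFC1 at 0.20, and the interval of CHTF18 crosses 0.

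The clamp fell, and its loaders split by subunit. PCNA was at 8238, 7658 and 8157 in normoxia and at 2522, 2762 and 2524 in hypoxia (a log2 change of -1.62, interval -1.78 to -1.45, adjusted p = 4.07e-05). All hypoxia arrays stood at about the same reduced level. The small subunits RFC2, RFC3, RFC4 and RFC5, which form the body of the loader, fell, with log2 changes of -1.20, -1.64, -0.93 and -1.45. The size depended on the probe set. Other bright probe sets gave -1.87 for RFC2 (interval -2.03 to -1.70), -2.20 for RFC3 (-2.51 to -1.88), and -1.36 and -0.77 for RFC5. RFC3 went from 4201 ± 56.8 to 1336 ± 31.5 and RFC4 from 7298 ± 92.0 to 3823 ± 99.9. RFC1, the large subunit that makes RFC the loader of PCNA, was at 2486, 2518 and 2525 in normoxia and at 2752, 2970.3 and 2960.3 in hypoxia (a log2 change of 0.20, interval 0.061 to 0.35, adjusted p = 0.0373). The groups did not overlap, but the rise is small. It no longer passed when probe sets were averaged (0.24, adjusted p = 0.0775), with median centring (0.17, adjusted p = 0.0606), with the replicate block (adjusted p = 0.0515) and without any of 5 arrays (each but the hypoxia array numbered 0), at adjusted p of 0.0929 to 0.118. Another probe set of RFC1 rose by 0.56, from 1588 ± 96.6 to 2349 ± 151 (limma adjusted p over all probe sets = 0.00316), where the brightest did not pass at 0.0586, and the last, at 7.33 and 6.59, was dim. That other probe set has a name ending in x_at, which marks probes that may also bind other transcripts. The difference RFC3 minus RFC1 shifted by -1.84, and by -1.95 to -1.72 over pairs of arrays (exact permutation test, p = 0.1, adjusted 0.140).

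The alternative loader of CHTF18 and DSCC1, known for its part in sister chromatid cohesion, was divided as well. DSCC1 was at 2256, 2309 and 2291 in normoxia and at 469.7, 492 and 418 in hypoxia (a log2 change of -2.28, interval -2.46 to -2.09, adjusted p = 2.66e-05). Its hypoxia arrays held 20.1% of the normoxia level. CHTF18, its large subunit and counterpart of RFC1, was at 549.7, 593 and 682 in normoxia and at 592, 779.7 and 735 in hypoxia (a log2 change of 0.20, interval -0.13 to 0.52, adjusted p = 0.319). The groups overlapped, and its interval reached no lower than -0.13. CHTF8, the third subunit specific to that loader and no member, fell by 0.61.

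RPA fell in all 3 subunits, with the smallest median change of the groups with several genes (-0.58). RPA1, the largest subunit and main DNA-binding part, fell from 3982 ± 78.3 to 2661 ± 92.6 (-0.58) and RPA3, the smallest, from 3577 ± 151 to 2415 ± 78.2 (-0.56). RPA2, the subunit phosphorylated in replication stress, fell further, from 3258 ± 193 to 1492 ± 118 (-1.12, interval -1.33 to -0.91), with an interval apart from those of RPA1 (-0.72 to -0.44) and RPA3 (-0.71 to -0.41). RPA3 minus RPA1 shifted by 0.016, and by -0.068 to 0.099 over pairs of arrays (exact permutation test, p = 0.8, adjusted 0.8). RPA serves in repair as well as in replication.

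Among the enzymes that mature Okazaki fragments, FEN1, which cuts the displaced flap, stood apart. It was at 5372, 5629 and 5469.8 in normoxia and at 1087, 1128 and 1104 in hypoxia (a log2 change of -2.29, interval -2.43 to -2.16, adjusted p = 2.07e-05). The hypoxia arrays held 20.2% of the normoxia level and differed little among themselves, and the other probe set fell by 2.60. LIG1, the ligase that seals the nick, fell by only 0.69, from 669 ± 17.5 to 409 ± 19.1. DNA2, a nuclease and helicase for long flaps, fell from 1056 ± 116 to 522 ± 9.06 (-0.99), and RNASEH2A, the catalytic subunit of the RNase that removes RNA primers, from 1831 ± 82.7 to 859 ± 34.3 (-1.08). The intervals of LIG1 (-0.84 to -0.54), DNA2 (-1.22 to -0.76) and RNASEH2A (-1.24 to -0.92) all lay above that of FEN1.

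Genes of proteins that hold the fork together or pass on checkpoint signals also fell, with 5 of 5 lower. TIPIN was at 1972, 1885 and 1865 in normoxia and at 452, 416 and 427 in hypoxia (a log2 change of -2.10, interval -2.25 to -1.95, adjusted p = 2.07e-05). Its binding partner TIMELESS fell far less, from 2363 ± 66.2 to 1512 ± 67.2 (-0.64, interval -0.79 to -0.49). TIMELESS did not pass when its probe sets were averaged (-0.23, adjusted p = 0.223); the other probe set, at 67.0 in normoxia and 79.5 in hypoxia, was dim. CLSPN, the adaptor through which the checkpoint kinase CHK1 is activated, was at 552, 567 and 566 in normoxia and at 144, 148 and 128 in hypoxia (-1.89, interval -2.06 to -1.72, adjusted p = 3.36e-05). Its hypoxia arrays thus held 24.9% of the normoxia level. WDHD1, which tethers polymerase alpha to the helicase, fell from 295 ± 14.6 to 129 ± 10.7 (-1.10), with its other probe sets at -2.11 and -1.51. TOPBP1, an activator of the kinase ATR that also acts in origin firing, fell from 3178 ± 86.6 to 1777 ± 54.7 (-0.83).

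All 4 chromatin assembly genes fell by more than 1 log2 unit. CHAF1B, the middle subunit of chromatin assembly factor 1, was at 974, 1052 and 975 in normoxia and at 289, 292 and 278 in hypoxia (a log2 change of -1.75, interval -1.90 to -1.60, adjusted p = 3.02e-05). The hypoxia arrays held 28.6% of the normoxia level on average. The large subunit gene CHAF1A fell by 1.36, from 2728 ± 97.3 to 1051 ± 40.5, on a probe set whose name ends in x_at; its other probe sets fell by 1.65, 1.58 and 0.40, the last of them dim. The paralogues ASF1A and ASF1B carry histones H3 and H4 to such assembly factors, and ASF1B is the form tied to proliferation. ASF1A fell from 2546 ± 21.8 to 1245 ± 58.0 (-1.02) and ASF1B from 2064 ± 51.1 to 751 ± 55.3 (-1.44). ASF1B minus ASF1A shifted by -0.42 (-0.51 to -0.35 over pairs of arrays), and CHAF1B minus CHAF1A by -0.39 (-0.51 to -0.25), both with p = 0.1 in the exact permutation test (adjusted 0.140). DTL, which directs a CUL4 ubiquitin ligase to proteins bound to PCNA on DNA, fell from 4084 ± 218 to 1178 ± 70.4 (-1.78), with -1.70 on its other probe set.

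**Figure D3:**
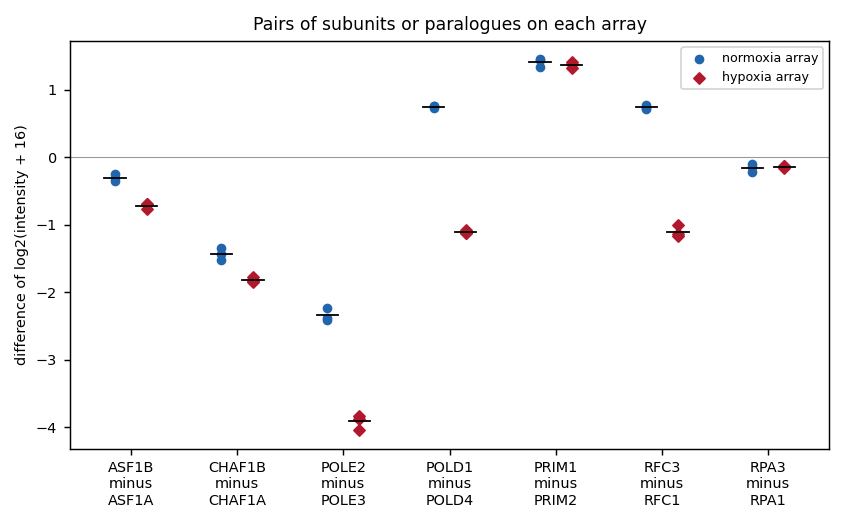
Difference of log2(intensity + 16) between the genes of each of 7 pairs on every array (circles for normoxia, diamonds for hypoxia, bars for the mean of 3 arrays). Only the shift between conditions can be read, since the genes are read by different probes: it is -1.86 for POLD1 minus POLD4, -1.84 for RFC3 minus RFC1 and -1.57 for POLE2 minus POLE3, and the arrays overlap for PRIM1 minus PRIM2 and RPA3 minus RPA1.

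Other probe sets of the same genes mostly went the same way. The 42 genes have 75 probe sets, of which 61 fell, 2 rose and 12 did not pass in limma over all 41091 probe sets with 1 symbol (18.0% and 15.8% of these fell and rose). Beside the brightest of each gene there were 33 others, in 19 genes. Of 18 with a mean log2(intensity + 16) of at least 7, 15 fell, 1 rose (RFC1) and 2 did not pass (1 each of GINS4 and POLD3). Of the 15 dimmer ones, 7 fell and 8 did not pass. No member had another probe set past the threshold against its own call in this fit, and 23 members rest on 1 probe set. The nearest was the bright GINS4 probe set at 0.52 (interval 0.025 to 1.01, limma adjusted p over all probe sets = 0.105). Its mean log2 value, 7.24, was close to the 7.29 of the probe set used for GINS4. With only probe sets of a mean log2 of at least 7 fitted, it was among those that rose, against the call of GINS4. Averaging the probe sets of a gene, dim ones included, gave smaller falls for several members besides TIMELESS, which still passed. Among them were CLSPN (-0.83), DSCC1 (-1.37), GINS2 (-0.89), GINS4 (-0.53), POLD3 (-0.76), POLA2 (-0.99), RFC5 (-1.19), RPA1 (-0.44) and CHAF1A (-1.25). Others fell further, such as WDHD1 (-1.57) and RFC2 (-1.53). The number of members that fell by at least 1 log2 unit thus depends on the probe sets used.

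**Figure D4:**
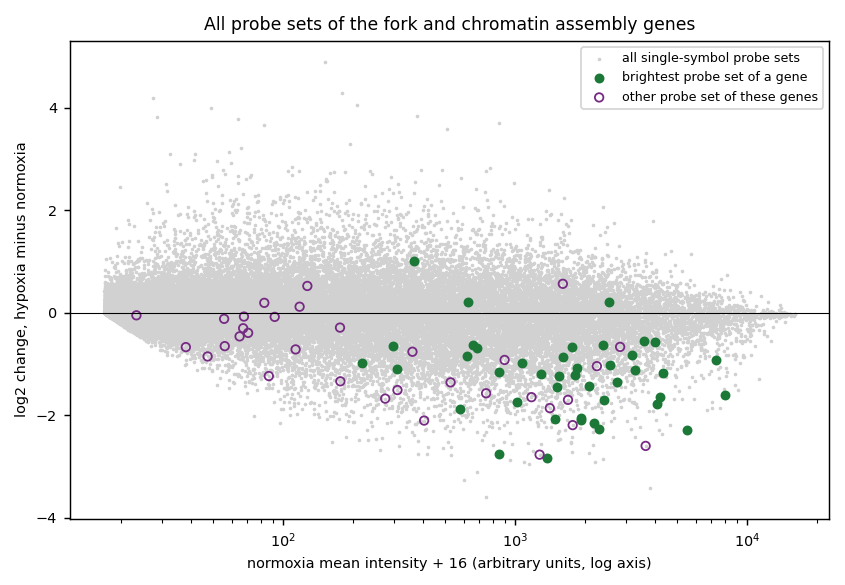
Log2 change against the normoxia mean intensity plus 16 (log axis) for all 41091 probe sets with 1 symbol (grey), the brightest probe set of each of the 42 genes (filled) and their 33 other probe sets (open). Most filled points lie below 0 over the whole range of intensity, and open points near 0 are mainly dim.

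Genes of related functions were grouped in 7 further lists. Of 22 genes of helicase loading and origin firing, 20 fell and 2 (ORC2 and ORC4) did not pass, with a median change of -1.06, among them MCM10 (-2.70) and the helicase subunit MCM3 (-1.92). Of 11 measured genes of deoxynucleotide supply, 9 fell and 2 did not pass (median -0.56), among them CTPS1, which makes CTP (-2.35), and the nucleotide pyrophosphatase DCTPP1 (-1.79). Partner subunits and topoisomerases gave 8 lower, 3 higher (CUL4B, TOP2A and TOP2B) and 1 not past the threshold (median -0.35). In that list RNASEH2B, a partner of RNASEH2A, fell by 1.53 and MCMBP, a binding partner of MCM proteins, by 0.82.

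Of 9 measured checkpoint genes, 5 fell, 2 rose and 2 did not pass (median -0.31), with the phosphatase gene CDC25A at -2.56 and the kinase gene CHEK1 at -1.09. Of 17 measured other histone chaperones, 7 fell, 2 rose (UBN2 and ATRX) and 8 did not pass (median 0.036, against -1.40 for the 4 chromatin assembly genes). Those that fell included SUPT16H, a subunit of the histone chaperone FACT that travels with the fork (-1.23), and the dim TONSL (-0.71), which recognises new histones. The rest of those that fell were NASP (-0.89), SSRP1 (-0.44), ANP32E (-0.35), SET (-0.34) and NAP1L4 (-0.32). Among genes that place histone H3.3 outside replication, ATRX, the partner of DAXX, rose by 0.83 and UBN2, the paralogue of UBN1, by 0.46, while HIRA, UBN1, CABIN1 and DAXX were at 0.019, 0.036, 0.070 and 0.21 and did not pass. Repair and translesion polymerases numbered 12, of which 2 fell, 1 rose and 9 did not pass (median -0.048), with PRIMPOL at -0.57 and POLI, a translesion polymerase, at 0.99. Of 7 genes of mitochondrial DNA replication, 5 fell, 1 rose and 1 did not pass (median -0.64). Those that fell included TWNK, with the largest fall of that list (-2.21), the packaging factor gene TFAM (-1.33) and the exonuclease gene MGME1 (-0.79). The shares in all these lists stand beside 20.6% lower and 16.9% higher among all genes, and differences between lists were not tested.

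**Figure D5:**
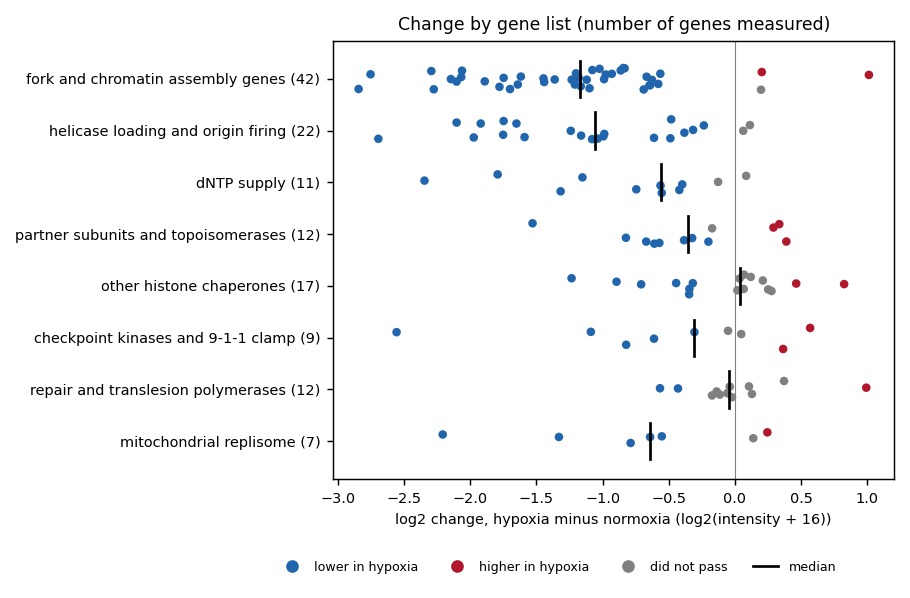
Log2 change of each gene, hypoxia minus normoxia, in the fork and chromatin assembly genes and in 7 lists of related genes, with the number measured in brackets; points are genes coloured by their call, bars are medians, and vertical scatter has no meaning. The median is -1.17 for the first list, -1.06 for helicase loading and origin firing, and 0.036 for other histone chaperones.

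Sorted by change of the brightest probe set, 8 of the 42 genes fell by at least 2 log2 units: GINS3, POLE2, FEN1, DSCC1, CDC45, TIPIN, POLA1 and GINS2. This order depends on the probe set. Other probe sets of WDHD1 (-2.11) and RFC3 (-2.20) fell as far, and averaging put GINS2 at -0.89 and DSCC1 at -1.37. All 8 were among the 100 largest falls of the 19775 genes. They come from different complexes, and each complex that held such a gene also held a subunit or partner with a smaller fall, such as GINS4, POLE, LIG1, TIMELESS and PRIM2, or one that did not pass, CHTF18. The smallest falls were those of RPA3, RPA1, PRIM2, TIMELESS, POLE and PRIM1, at -0.56 to -0.67. Of the 41 pairs of neighbours in this order, intervals overlapped in 38 and were apart in 3: POLE2 and FEN1, RPA3 and CHTF18, and RFC1 and POLD4. Over the 42 genes Pearson's r between the mean log2 value and the log2 change was 0.062, a description over genes read on the same 6 arrays.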

How the data were processed

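RNA was labelled as biotinylated cRNA, per the labels' protocols. The authors deposited a table of linear intensity values for 54613 probe sets on 6 arrays. Background correction, probe summary and scaling were not given in the sources used here. Precision is limited by the number of arrays. Names come from the platform annotation, with symbols updated by Entrez identifier: 41091 had 1 symbol, 1801 several and 11721 none here. Each gene was read by its brightest single-symbol probe set (highest mean log2 over all arrays). Hypoxia was compared with normoxia on log2(intensity + 16) in limma 3.58.1 (lmFit, then eBayes; R 4.3.3), without covariates, on all 19775 genes, with Benjamini-Hochberg adjustment and a threshold of 0.05; the procedure was tested on simulated data. Intervals are at the 95% level. Shifts between paired genes were tested by exact two-sided permutation over arrays. All 42 members were named, and from each other list the 2 genes with the smallest adjusted p; further genes were named after their values were seen. The members, gene lists, pairs and motif search were chosen with earlier results of these data known. Alternatives were another pseudocount, a filter on dim genes, the mean of probe sets, median centring, quantile normalization, an intensity trend, a replicate block and leaving out each array. Listed genes with no probe set of their own symbol alone, such as MMS22L, ATRIP, CD68 and FCGR3A, are not analysed here. Of all pairs of arrays, 1.07% to 1.23% of values were identical, so each array was counted as 1 sample.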

Additional observations from a re-analysis of the deposited data

How the results depend on the processing

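The count of 39 members that fell held in every alternative run, except with the mean of probe sets, where it was 38 (TIMELESS no longer passed). The count that rose was 2; it was 1, with RFC1 lost, with the mean of probe sets, with median centring and with the replicate block, and 1 to 2 when an array was left out. Probe sets of members that rose numbered 2, against 4 with only those of a mean log2 of at least 7, and 2 to 4 when an array was left out. Member probe sets that bright with a positive change were 1 of POLD4, 2 of RFC1, 1 of CHTF18 and 1 of GINS4. CHTF18 did not pass with that filter (limma adjusted p over genes = 0.181). The 4 thus take in the GINS4 probe set at 0.52, which goes against the call of that gene. The median change of the members, -1.17, was -1.11 with a pseudocount of 64, -1.06 with the mean of probe sets, -1.08 with quantile normalization, and -1.20 to -1.11 when an array was left out. The shift of RPA3 minus RPA1, 0.016, turned to -0.12 with the mean of probe sets and was -0.019 to 0.045 when an array was left out; the causes were not tested. Counts over all genes stayed within 1.5 times. Replicate numbers were not treated as pairs in the main fit. Correlations of deviations from the group means were 0.24, 0.0064 and 0.21 between same-numbered arrays, and -0.25 to 0.11 between differently numbered ones. Whether same-numbered arrays share an effect was not tested. With the replicate block 39 members fell and 1 rose, and no member's call changed but that of RFC1. Depth is unknown for intensities, and signal near the array median cannot be told from background.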
